A study of Mus musculus with 16 samples.

Results

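The genes described here copy the genome during S phase. They are 47 mouse genes that license replication origins, form and switch on the replicative helicase, make and join new DNA, supply its nucleotides and package it, together with the cyclin E genes that start S phase. The list goes by gene symbol, with no measured value in its rule, and each member was read from its own probe set with the highest mean over all 16 arrays. A probe set naming that gene alone was found for 46 of them, of 18193 genes in all, and Chaf1a is named only.

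RNA came from hepatic stellate cells of male Balb/c mice aged 8-10 weeks. These liver cells store retinoids at rest and become fibre-forming myofibroblasts when the organ is injured. All preparations were enriched by density and then depleted of cells carrying the macrophage protein F4/80. Culture cells (3 arrays) were grown from normal mice for 5 days with 10% serum, and coculture cells (2 arrays, with 1 further sample of the design not analysed here) in the same way beside hepatic macrophages that transwell inserts kept apart from them. Bile duct ligation cells (3 arrays) came from mice whose common bile duct had been tied for 15 days, and CCl4 cells (3 arrays) from mice given 4 intraperitoneal injections of carbon tetrachloride at 0.5 µl/g. Quiescent cells (5 arrays) came from normal mice, and the cells of these last 3 groups were all plated for 24 h before lysis, so the quiescent group had also spent a day in culture. No label says which preparations came from separate animals. The p-values therefore reflect variation among these samples alone, part or all of which could be technical.

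Replication is prepared in G1, when the origin recognition complex, Cdc6 and Cdt1 load rings of Mcm2 to Mcm7 onto origins, and Gmnn (geminin) later blocks Cdt1 so that no origin is loaded again. In S phase the GINS complex, Cdc45 and Mcm10 turn the loaded rings into moving helicases, and polymerases, the Pcna clamp and its Rfc loader follow. Many of these genes are targets of E2F transcription factors, which the retinoblastoma protein holds back in resting cells. Quiescent stellate cells rarely divide, and proliferation is a known part of their activation.

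The promoters of 6 members are shown because they hold letters of an E2F site. Windows of 300 bases (250 before and 50 after the start) from RefSeq, build GRCm38.p6, were found for 38 members, 44 windows in all. The letters TTTCCCGC, TTTCGCGC, TTTGCCGC and TTTGGCGC, read on both strands, stood in 14 of the 44 (31.8%), in 2.26% of all 32851 windows and in 4.16% of the 8227 windows of tested genes. Capitals mark these letters below. In Mcm5 and in the first stretch of Mcm6, matches on opposite strands overlap. The members shown are the 5 with the largest increase in coculture over quiescent cells among tested members with a match that were called higher there (Cdc6, Mcm5, Mcm6, Mcm7 and Uhrf1), and Cdt1, which had the largest called decrease in culture. Orc1 and Gins3, which were not tested, also had a match.
Cdc6, chr11:98907901-98908200, plus strand: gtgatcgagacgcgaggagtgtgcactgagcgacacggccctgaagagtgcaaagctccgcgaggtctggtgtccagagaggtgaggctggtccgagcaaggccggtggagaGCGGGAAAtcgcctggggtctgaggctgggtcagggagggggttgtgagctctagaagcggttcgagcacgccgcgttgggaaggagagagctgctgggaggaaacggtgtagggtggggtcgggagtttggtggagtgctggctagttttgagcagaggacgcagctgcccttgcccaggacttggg
Mcm5, chr8:75109259-75109558, plus strand: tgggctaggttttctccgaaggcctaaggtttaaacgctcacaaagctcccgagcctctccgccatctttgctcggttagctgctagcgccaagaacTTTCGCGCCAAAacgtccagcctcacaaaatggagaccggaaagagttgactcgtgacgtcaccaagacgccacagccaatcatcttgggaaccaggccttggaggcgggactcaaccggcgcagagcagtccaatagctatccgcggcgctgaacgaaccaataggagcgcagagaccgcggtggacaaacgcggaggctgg
Mcm6, chr1:128359656-128359955, minus strand: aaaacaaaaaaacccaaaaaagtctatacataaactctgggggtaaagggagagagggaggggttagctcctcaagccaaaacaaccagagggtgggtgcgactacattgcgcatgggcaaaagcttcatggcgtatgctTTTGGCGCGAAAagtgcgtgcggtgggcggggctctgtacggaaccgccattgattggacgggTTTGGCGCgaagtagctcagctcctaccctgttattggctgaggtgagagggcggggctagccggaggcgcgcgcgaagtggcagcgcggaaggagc
Mcm7, chr5:138171834-138172133, minus strand: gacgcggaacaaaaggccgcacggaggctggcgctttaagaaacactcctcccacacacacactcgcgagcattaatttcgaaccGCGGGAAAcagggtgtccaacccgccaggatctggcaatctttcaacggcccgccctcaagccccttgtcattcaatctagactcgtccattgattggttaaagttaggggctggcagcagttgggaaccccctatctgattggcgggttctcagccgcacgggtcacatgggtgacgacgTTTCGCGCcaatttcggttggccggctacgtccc
Uhrf1, chr17:56304063-56304362, plus strand: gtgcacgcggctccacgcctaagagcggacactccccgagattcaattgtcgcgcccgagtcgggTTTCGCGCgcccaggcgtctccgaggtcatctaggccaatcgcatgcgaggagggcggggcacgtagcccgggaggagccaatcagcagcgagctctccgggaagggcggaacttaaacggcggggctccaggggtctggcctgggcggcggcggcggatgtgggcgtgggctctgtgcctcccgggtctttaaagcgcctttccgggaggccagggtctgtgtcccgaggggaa
Cdt1, chr8:122567765-122568064, plus strand: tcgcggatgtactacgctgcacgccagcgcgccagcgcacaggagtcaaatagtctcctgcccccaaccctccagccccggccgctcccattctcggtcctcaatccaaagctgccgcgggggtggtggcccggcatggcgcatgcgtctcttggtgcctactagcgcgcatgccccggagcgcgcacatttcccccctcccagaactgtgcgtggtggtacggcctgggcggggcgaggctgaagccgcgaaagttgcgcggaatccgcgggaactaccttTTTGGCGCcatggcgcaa
A second window each of Mcm7 and Uhrf1 had no match. Of other letters, CCAAT stood in 59.1% of the members' windows, 37.4% of all and 36.8% of windows of tested genes. The GC box GGGCGG stood in 75.0%, 35.7% and 65.6% in the same order. TTTGAA, the letters of a cell cycle element of mitotic genes, stood in 11.4%, 17.9% and 11.4%, so for it the members matched the tested genes. The 14 members with an E2F match and 23 measured members without one had median log2 differences of 1.08 and 1.15 in coculture over quiescent cells. In culture over quiescent cells these medians were -0.68 and -0.07. Such letters describe the window and do not show binding.

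Values are the authors' log2 expression values, so that 1 unit is a 2-fold difference. Probe sets without signal gather near log2 2 on these arrays, which makes differences that start there depend on the authors' background step. A gene was tested if it reached log2 5 on at least 2 arrays, as 7823 genes did, and was called at an adjusted p under 0.05 (limma, Benjamini-Hochberg over all 7823). Of the 46 members 36 were tested. Mcm10, Gins1, Gins3, Cdc45, Orc1, Pole, Rfc5, Tyms, Tk1 and Ccne1 were not, and Gins2, Cdc6, Uhrf1, Chaf1b and Ccne2 were tested without reaching log2 5 on any quiescent array. Members that enter the test through the groups where they are high had to differ, so the counts below describe the 36 and are set beside the share of all tested genes and beside a filter on the mean over all arrays, which 30 members pass.

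Of 10 measured stellate cell genes, 9 averaged at least log2 5 in culture, coculture and quiescent cells and 8 in each injury group. Des (desmin) averaged between log2 7.83 and 8.86 in the 5 groups, whereas others differed. Reln averaged 11.2 in culture, 8.78 in coculture, 10.9 after bile duct ligation, 10.6 after CCl4 and 12.0 in quiescent cells. Lrat, which esterifies retinol, averaged 9.75, 7.98, 4.78, 3.81 and 5.61 in the same order of groups. Lum averaged 12.4 in culture, against 9.44 in quiescent cells, and the collagen gene Col1a1 12.2 after bile duct ligation, against 7.96 in quiescent cells. Adgre1, the F4/80 gene, averaged between 1.54 and 2.23, and the mean of 16 macrophage genes lay between 1.81 and 3.27 on every array. Hepatocyte genes differed between the groups. Alb averaged 8.25 after bile duct ligation and 9.33 after CCl4, against 2.75 in quiescent cells. The mean of 10 hepatocyte genes lay between 2.71 and 3.38 on the bile duct ligation arrays and between 3.36 and 6.01 on the CCl4 arrays, against 1.44 to 2.15 on the quiescent ones, and no hepatocyte gene averaged log2 5 in culture or coculture. In coculture Krt19, a bile duct gene, averaged 5.60, against 2.33 in culture, and Cd68, a lysosomal gene of macrophages and other cells, averaged 7.82, against 3.74 in culture and 7.02 in quiescent cells. The other 5 of 6 bile duct genes averaged under log2 5 in coculture. Lyz2, a myeloid gene, averaged between 4.94 and 5.91 in the 4 activated groups and 2.02 in quiescent cells. The part of these genes' cells in the results below was not tested. In RNA from many cells, fewer cells in S phase and less replication RNA per cell cannot be told apart.

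Replication genes stood higher in coculture and after either injury than in culture or in quiescent cells. The mean over the 46 members was 5.11 to 5.31 on the culture arrays, 6.41 and 7.13 on the coculture arrays, 6.18 to 6.80 after bile duct ligation, 6.09 to 6.29 after CCl4 and 5.13 to 5.64 on the quiescent arrays. Every coculture, bile duct ligation and CCl4 array thus lay above every culture and quiescent array. Coculture had the highest group mean of 30 members and bile duct ligation of 11, while culture had the lowest of 28 and quiescent cells of 17.

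**Figure D1:**
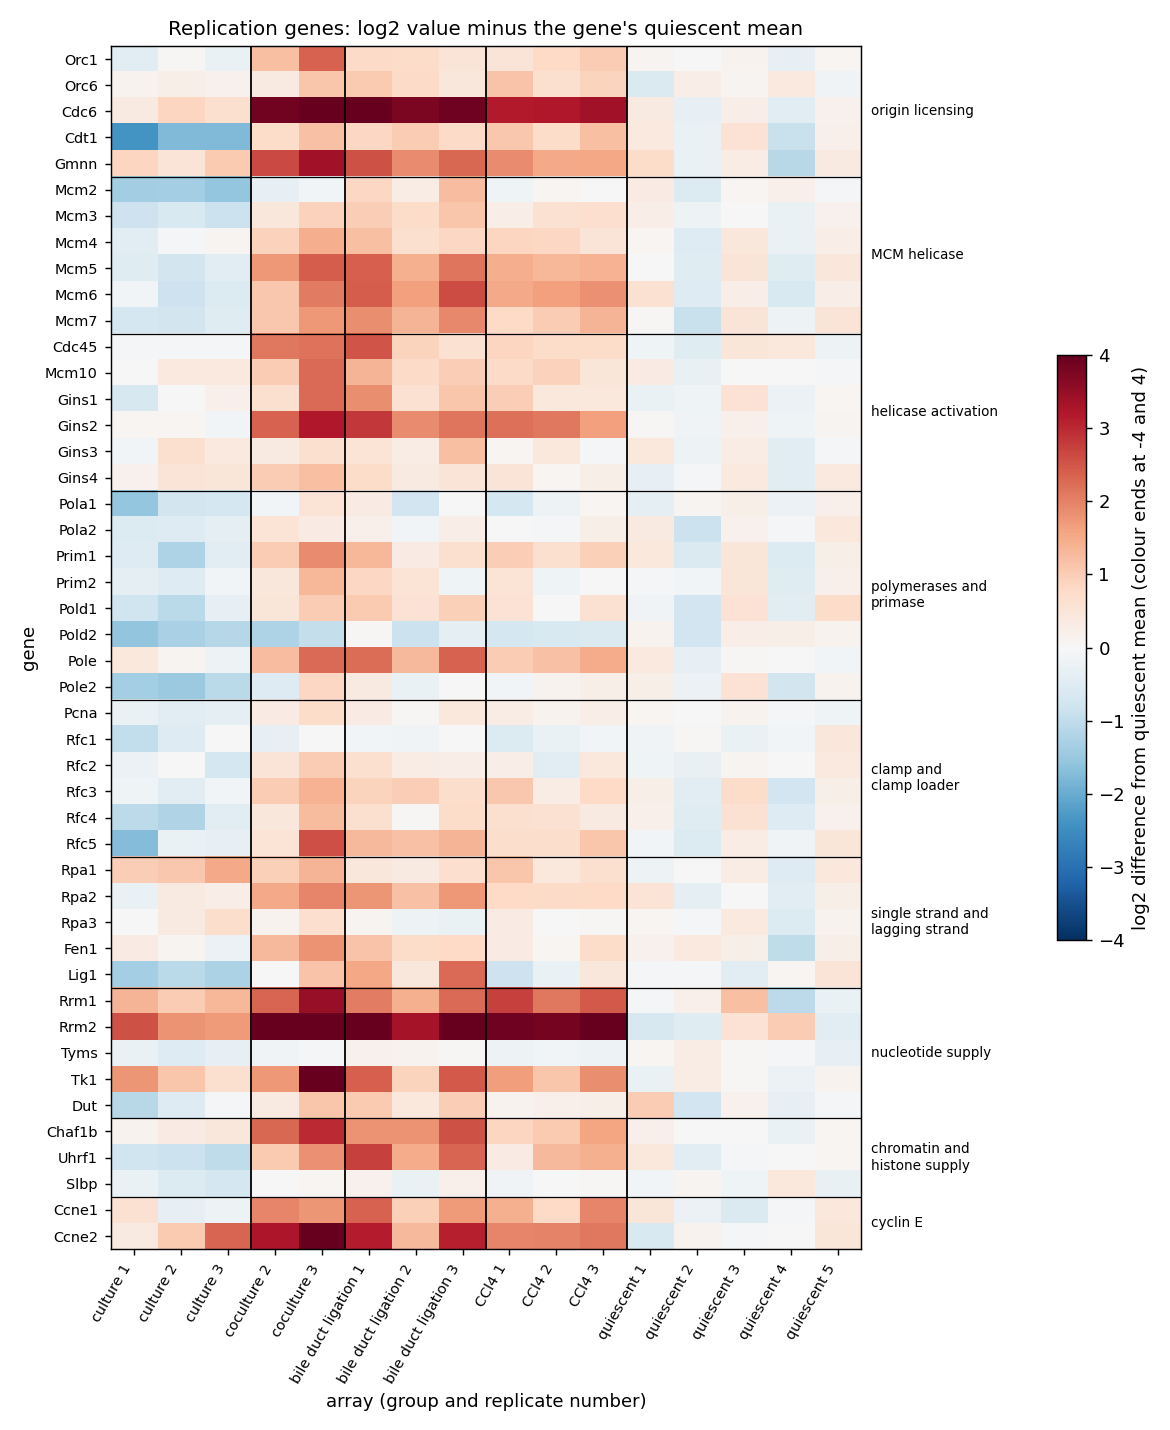
Heat map of the 46 members (rows, by role) on the 16 arrays (columns, by group): colour is the log2 value minus the member's quiescent mean, red above and blue below, ending at -4 and 4. Cdc6 and Rrm2 are deep red in coculture, bile duct ligation and CCl4, and most Mcm cells are pale blue in culture and red in those 3 groups, apart from Mcm2 in coculture and CCl4.

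Cells activated on plastic did not raise most replication genes. In culture 3 of the 36 tested members were higher and 11 lower than in quiescent cells, where 42.1% of all tested genes were called, 18.5% higher and 23.5% lower. The median difference over all 46 members was -0.28, against -0.05 over all tested genes. Lower were Cdt1, Mcm2, Mcm3, Pola1, Pold2, Pole2, Pcna, Rfc4, Lig1, Uhrf1 and Slbp, and higher were Rpa1, Rrm1 and Rrm2. With genes kept by their mean, 3 of 30 were higher and 9 lower. The calls of Cdt1, Mcm2, Mcm3, Pold2, Pole2, Rpa1 and Rrm2 were kept whichever single array was left out. Those of Lig1, Pola1, Rfc4, Rrm1 and Uhrf1 were lost without culture replicate 1 (-1.17, -0.71, -0.83, 1.16 and -0.94). Without culture replicate 2 the calls of Pcna, Rfc4, Slbp and Uhrf1 were lost, at differences of -0.90 to -0.32, and without replicate 3 those of Lig1, Pcna, Rrm1, Slbp and Uhrf1 (1.17 for Rrm1 and -1.22 for Lig1). The Slbp call was also lost without quiescent replicate 4 (-0.39), and the Uhrf1 call without quiescent replicate 1 (-0.78) or 5 (-0.87).

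Culture beside macrophages gave a different picture. In coculture 25 of 36 members were higher than in quiescent cells and 1, Pold2, was lower, where 38.7% of all tested genes were called, 17.8% higher and 20.9% lower. The median over the 46 members was 1.20, and for 30 of them both coculture arrays lay above all 5 quiescent arrays. Among the 36 tested members this held for 22, against 21.6% of all tested genes. The largest called differences were those of Rrm2 (5.04), Cdc6 (4.32), Ccne2 (4.00), Gmnn (3.00), Rrm1 (2.91), Gins2 (2.79), Chaf1b (2.63) and Mcm5 (2.08). Of these, Cdc6, Ccne2, Gins2 and Chaf1b reached log2 5 on no quiescent array. They entered the test through activated groups, so their tests support no direction. With genes kept by their mean, 20 of 30 were higher and 1 lower. This count rested on 1 array: without coculture replicate 3 it was 12, and Cdt1, Mcm3, Mcm4, Mcm6, Mcm7, Orc6, Pcna, Prim1, Prim2, Rfc2, Rfc3, Rfc4 and Uhrf1 were no longer called, at differences of 0.31 to 1.07. Without coculture replicate 2 the calls of Cdt1 (1.18) and Pold2 (-0.95) were lost. Both of these fits leave a single coculture array and take its variation to be that of the remaining groups. Other single arrays ended some of the calls of Orc6, Prim2, Rfc2 and Rfc4, at differences of 0.58 to 0.91.

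Set against culture alone, which by the labels lacked only the macrophages, 28 of 36 members were higher in coculture and 0 lower. Of all tested genes 15.4% were called, 8.37% higher and 7.03% lower, and at an unadjusted p under 0.05 31 members were higher and 0 lower. Over the 46 members the median was 1.54, against 0.01 for all tested genes, and both coculture arrays lay above all 3 culture arrays for 40 of 46 members. Among the 36 tested members they did for 32, against 23.9% of all tested genes. The largest differences were those of Cdc6 (3.71), Rrm2 (3.03), Cdt1 (2.93), Gins2 (2.78), Ccne2 (2.75), Mcm5 (2.63), Uhrf1 (2.33) and Chaf1b (2.32). Of these, Cdc6, Gins2, Uhrf1 and Chaf1b reached log2 5 on no culture array. They entered the test through other groups, so their tests support no direction. Orc6, Gins4, Pola2, Pold2, Rfc1, Rpa1, Rpa3 and Slbp were not called. With genes kept by their mean, 22 of 30 were higher. Without coculture replicate 3 the count was 14, and the calls lost stood at 0.78 to 1.98. Cdc6, Cdt1, Chaf1b, Gins2, Gmnn, Mcm3, Mcm5, Mcm6, Mcm7, Pcna, Prim1, Rpa2, Rrm2 and Uhrf1 kept their call whichever single array was left out. Smaller numbers of calls were lost without coculture replicate 2 (Dut, Pola1 and Pold1) or culture replicate 1 (Dut, Lig1, Pola1 and Prim2), 2 (Dut, Pold1, Pole2, Prim2 and Rrm1) or 3 (Lig1, Rfc2 and Rrm1), at differences of 0.89 to 1.78. The Dut call (1.30) was lost without 7 further single arrays, which leave its difference unchanged, and the Pola1 call without CCl4 replicate 2.

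**Figure D2:**
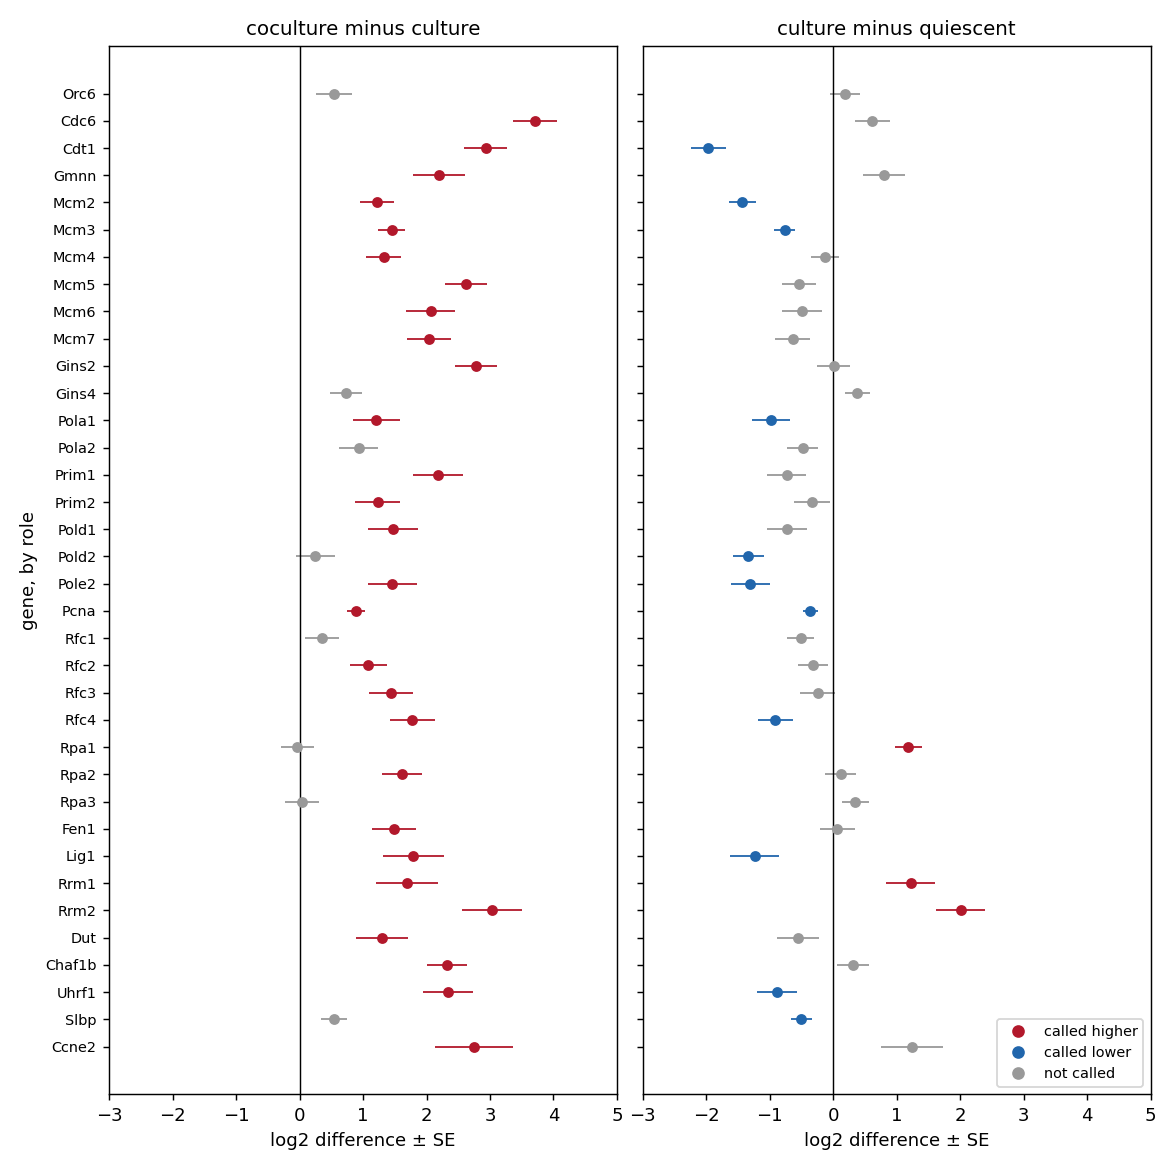
Log2 differences with standard errors of the 36 tested members, by role, for coculture minus culture (left) and culture minus quiescent (right), with called members in red (higher) or blue (lower). On the left 28 points are red and none blue, and on the right 3 are red and 11 blue, with Cdt1 the lowest at -1.97.

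Many replication genes stood higher in preparations from injured livers than in quiescent ones, after either injury. After bile duct ligation 20 of 36 members were higher and 0 lower than in quiescent cells, where 16.9% of all tested genes were called, 8.03% higher and 8.83% lower. After CCl4 17 were higher and 0 lower, where 22.0% of tested genes were called, 9.51% higher and 12.5% lower. At an unadjusted p under 0.05, 0 members were lower after bile duct ligation and 1 after CCl4. Medians over the 46 members were 0.88 and 0.73. With genes kept by their mean, 14 of 30 members were higher after bile duct ligation and 12 after CCl4. Without bile duct ligation replicate 1 the first count was 13, with Cdt1, Fen1, Lig1, Mcm2, Mcm4, Orc6 and Rfc3 no longer called, at differences of 0.61 to 1.36. The other 2 bile duct ligation arrays ended the calls of Cdt1, Fen1 and Rfc3 as well, and of Orc6 (replicate 2) or Lig1 and Mcm2 (replicate 3), at 0.55 to 1.00. Leaving out a single quiescent, culture, coculture or CCl4 array ended the bile duct ligation calls of Cdt1, Rfc3, Orc6 or Fen1, which had adjusted p between 0.0352 and 0.0467. After CCl4 the calls of Cdt1, Mcm3, Mcm4, Mcm7, Orc6, Rpa1, Rpa2 and Uhrf1 were each lost without at least 1 CCl4 array, at 0.43 to 0.96, and those of Mcm3, Mcm4, Rpa2 and Uhrf1 also without quiescent replicate 2, of Mcm3 and Rpa2 without quiescent replicate 3 or 4, and of Mcm3 without bile duct ligation replicate 1.

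Each of these 4 comparisons uses the same 5 quiescent arrays, so their calls are not independent of each other and are given side by side. Mcm3, a helicase subunit, was at -0.76 in culture, 0.68 in coculture, 0.94 after bile duct ligation and 0.51 after CCl4, all called. Pcna, the clamp, was at -0.36, 0.53, 0.26 and 0.24 in the same order, with the first 2 called. Dut, Pola2, Pold1, Rfc1 and Rpa3 were called in none of the 4.

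Among the licensing genes, Cdt1 and Cdc6 separated the states in different ways. Cdt1 stood at 5.21, 5.82 and 5.84 in culture, 8.33 and 8.77 in coculture, 8.43, 8.60 and 8.34 after bile duct ligation, 8.68, 8.33 and 8.78 after CCl4 and 7.99, 7.32, 8.16, 6.69 and 7.81 in quiescent cells. All culture arrays lay below every other array. Cdt1 fell by 1.97 ± 0.28 in culture relative to quiescent cells (log2 difference with standard error, adjusted p = 6.45e-05), whereas coculture exceeded culture by 2.93 ± 0.35 (adjusted p = 7.94e-05). A second probe set of Cdt1 gave -2.70 in culture and 0.57, 0.74 and 0.43 in coculture, after bile duct ligation and after CCl4, all over quiescent cells, and the last 3 were not called with it.

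Cdc6 stood at 2.68, 3.17 and 2.97 in culture, 6.18 and 7.12 in coculture, 6.80, 6.10 and 6.22 after bile duct ligation, 5.49, 5.54 and 5.67 after CCl4 and 2.68, 2.000, 2.60, 1.86 and 2.49 in quiescent cells. Culture and quiescent arrays lay near the level of probe sets without signal, and every array of the other 3 groups lay at least 2 units above them. It differed from quiescent cells by 4.32 ± 0.32 in coculture, 4.05 ± 0.28 after bile duct ligation and 3.24 ± 0.28 after CCl4 (adjusted p = 3.02e-07, 2.11e-07 and 1.32e-06). Cdc6 reached log2 5 on no culture or quiescent array. Because it entered the test through the other groups, these tests support no direction. In culture its difference of 0.61 ± 0.28 was not called (adjusted p = 0.0852).

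Gmnn, the inhibitor of Cdt1, stood at 6.24, 5.89 and 6.41 in culture, 8.03 and 8.74 in coculture, 7.92, 7.28 and 7.68 after bile duct ligation, 7.27, 6.89 and 6.92 after CCl4 and 6.10, 5.10, 5.66, 4.28 and 5.75 in quiescent cells. It was called higher in the last 3 of the 4 activated groups, by 3.00, 2.25 and 1.65, and not in culture (0.80 ± 0.33, adjusted p = 0.0596), where the arrays overlapped those of quiescent cells. Culture cells thus had less Cdt1 RNA than quiescent cells and no called change of its inhibitor. Orc6, a subunit of the origin recognition complex, rose by 0.73, 0.76 and 0.89 in coculture, bile duct ligation and CCl4, with adjusted p of 0.0412, 0.0352 and 0.0135. Orc1, another subunit, was not tested and averaged 1.50 in culture, 3.52 in coculture, 2.41 after bile duct ligation, 2.52 after CCl4 and 1.73 in quiescent cells.

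All 6 subunits of the Mcm2 to Mcm7 helicase were tested, and all 6 had a negative difference in culture. Mcm2 stood at 5.95, 6.001 and 5.80 in culture, 7.01 and 7.26 in coculture, 8.18, 7.64 and 8.58 after bile duct ligation, 7.17, 7.44 and 7.35 after CCl4 and 7.68, 6.80, 7.42, 7.55 and 7.31 in quiescent cells. Again the culture arrays lay below all others, and Mcm2 fell by 1.44 ± 0.21 (adjusted p = 0.000106), whereas a second Mcm2 probe set gave -0.38. Mcm3 fell by 0.76 ± 0.17 (adjusted p = 0.00204). The other 4 subunits lay between -0.64 and -0.13 and were not called, and a second Mcm6 probe set gave 0.26.

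In the other 3 activated groups the helicase genes were mostly higher. Bile duct ligation raised all 6, by 0.78 (Mcm2) to 2.23 (Mcm6). Coculture and CCl4 raised all but Mcm2, which stood at -0.22 ± 0.24 and -0.03 ± 0.21 and was not called (adjusted p = 0.51 and 0.931). A second Mcm2 probe set that passed the filter gave 0.87 in coculture and 0.21 after CCl4, so the coculture sign of this subunit depended on the probe set. Mcm5 stood at 6.94, 6.71 and 7.02 in culture, 9.18 and 9.85 in coculture, 9.83, 8.85 and 9.58 after bile duct ligation, 8.90, 8.76 and 8.81 after CCl4 and 7.44, 6.94, 7.96, 6.93 and 7.89 in quiescent cells. The coculture and in vivo arrays of Mcm5 did not overlap those of culture or quiescent cells, with differences of 2.08 ± 0.31, 1.99 ± 0.27 and 1.39 ± 0.27 over quiescent cells (adjusted p = 0.000122, 0.000114 and 0.00183). Mcm6 rose by 1.58, 2.23 and 1.66 and Mcm7 by 1.40, 1.72 and 1.06 in the same order of groups.

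Of the 6 factors that switch the helicase on, Gins2 and Gins4 were tested. Gins2, a GINS subunit, stood at 2.96, 2.96 and 2.76 in culture, 5.24 and 6.09 in coculture, 5.71, 4.78 and 5.03 after bile duct ligation, 5.09, 5.00 and 4.52 after CCl4 and 2.93, 2.74, 3.07, 2.70 and 2.98 in quiescent cells. Culture and quiescent arrays overlapped (0.01 ± 0.26, adjusted p = 0.984), and the other 3 groups lay above both, by 2.79, 2.29 and 1.99 over quiescent cells. Gins2 reached log2 5 on no culture or quiescent array. Because it entered the test through the other groups, its tests support no direction. Gins4 averaged 6.88 in culture, 7.62 in coculture, 7.02 after bile duct ligation, 6.78 after CCl4 and 6.50 in quiescent cells, and among the 4 comparisons with quiescent cells it was called in coculture (1.12 ± 0.23, adjusted p = 0.00178). The other members of this role were untested and averaged under log2 5 in every group. Cdc45 stood at 2.12, 2.10 and 2.16 in culture, 4.31 and 4.37 in coculture, 4.73, 3.09 and 2.79 after bile duct ligation, 3.05, 2.95 and 2.93 after CCl4 and 2.02, 1.70, 2.67, 2.61 and 1.98 in quiescent cells, so that it was highest in coculture and on 1 bile duct ligation array, with culture and quiescent arrays near the level without signal. Mcm10, Gins1 and Gins3 averaged 3.99, 4.22 and 3.48 in coculture, against 2.35, 2.75 and 2.98 in quiescent cells.

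**Figure D3:**
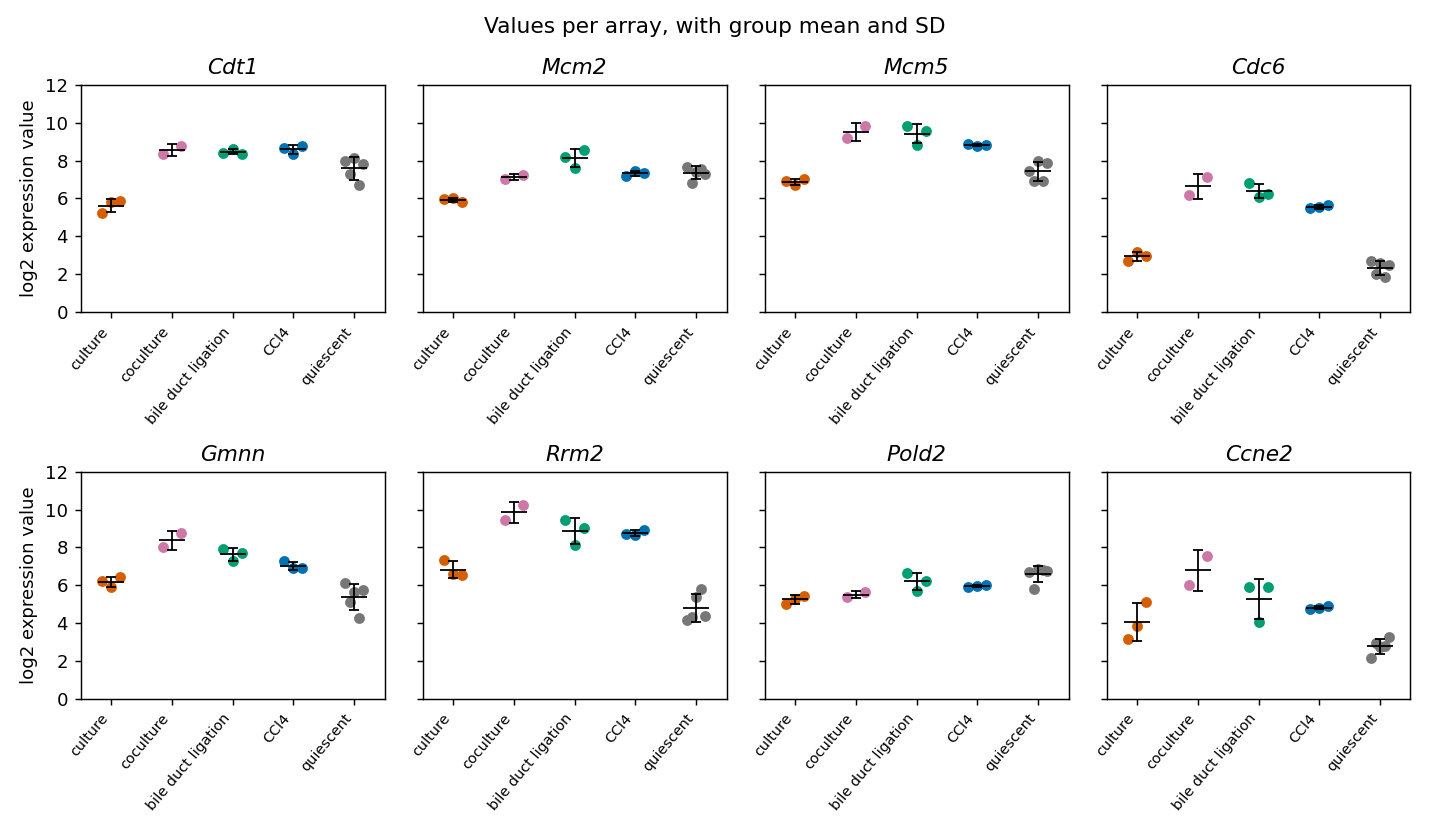
Log2 expression values of 8 members on each array (points), with group means and SD (bars), for culture, coculture, bile duct ligation, CCl4 and quiescent cells from left to right in each panel. Cdt1 and Mcm2 are lowest in culture, and Cdc6 is low in both culture and quiescent cells. Ccne2 is low in quiescent cells and uneven in culture. Rrm2 is above quiescent cells in all 4 activated groups, and Pold2 has its highest mean in quiescent cells.

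Of the 7 tested polymerase and primase genes, 0 were called after either injury, where 16.9% (bile duct ligation) and 22.0% (CCl4) of all tested genes were, shares that make 0 of so few genes no result about them. In coculture 5 of the 7 were higher than in culture, against 8.37% of all tested genes, and in culture 3 were lower than in quiescent cells, against 23.5%. In culture Pold2, Pole2 and Pola1, subunits of the polymerases delta, epsilon and alpha, fell by 1.34 ± 0.25, 1.30 ± 0.31 and 0.98 ± 0.30 (adjusted p = 0.00058, 0.00338 and 0.0151). Pold2 stood at 5.02, 5.28 and 5.44 in culture, 5.36 and 5.63 in coculture, 6.64, 5.72 and 6.23 after bile duct ligation, 5.89, 5.97 and 6.005 after CCl4 and 6.72, 5.81, 6.85, 6.80 and 6.73 in quiescent cells. It was the only member called lower in coculture (-1.09 ± 0.28, adjusted p = 0.00704), and it was the only one for which both coculture arrays lay below all quiescent arrays. Prim1, the catalytic subunit of primase, and Prim2, its partner, rose by 1.45 and 0.89 in coculture. Pole, the catalytic subunit of polymerase epsilon, was untested and stood at 2.87, 2.54 and 2.25 in culture, 3.68 and 4.71 in coculture, 4.67, 3.72 and 4.78 after bile duct ligation, 3.44, 3.61 and 3.92 after CCl4 and 2.83, 2.11, 2.49, 2.42 and 2.33 in quiescent cells.

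Pcna, the sliding clamp that holds polymerases on DNA, stood at 10.53, 10.37 and 10.46 in culture, 11.12 and 11.55 in coculture, 11.15, 10.85 and 11.22 after bile duct ligation, 11.12, 10.94 and 11.09 after CCl4 and 10.88, 10.84, 10.97, 10.74 and 10.63 in quiescent cells. Pcna fell by 0.36 ± 0.11 in culture (adjusted p = 0.0206) and rose by 0.53 ± 0.13 in coculture (adjusted p = 0.00566), while 0.26 after bile duct ligation and 0.24 after CCl4 were not called. Of the clamp loader genes Rfc2, Rfc3 and Rfc4 rose in coculture by 0.76, 1.20 and 0.87. Rfc4 fell by 0.91 ± 0.28 in culture, and Rfc3 rose by 0.86 after bile duct ligation at an adjusted p of 0.0467. Rfc1, the large loader subunit, was called in none of the 8 comparisons. Rfc5 was untested, with 1.71, 3.17 and 3.11 in culture, 3.99 and 6.03 in coculture and 3.33, 2.90, 3.76, 3.32 and 3.95 in quiescent cells.

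The single strand binding genes did not move as one complex. Rpa1, the large subunit of replication protein A, stood at 11.59, 11.69 and 12.11 in culture, 11.56 and 11.96 in coculture, 11.07, 10.96 and 11.29 after bile duct ligation, 11.72, 11.04 and 11.25 after CCl4 and 10.41, 10.61, 10.91, 10.09 and 11.03 in quiescent cells. It rose by 1.19 ± 0.21 in culture, 1.15 ± 0.24 in coculture and 0.73 ± 0.21 after CCl4 (adjusted p = 0.00038, 0.0016 and 0.0208), and its culture and coculture arrays overlapped. A second Rpa1 probe set gave 0.72 in culture, 0.73 in coculture, 0.66 after bile duct ligation and 0.78 after CCl4. The larger rise in culture and coculture was thus not seen with that probe set. Rpa2 was at 0.12 ± 0.25 in culture (not called) and rose by 1.73, 1.56 and 0.78 in coculture, bile duct ligation and CCl4. Rpa3 was called in none of the 8 comparisons.

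For the enzymes that finish the lagging strand, the flap nuclease gene Fen1 rose by 1.55 ± 0.32 in coculture and 0.89 ± 0.28 after bile duct ligation (adjusted p = 0.00158 and 0.0383). Lig1, the DNA ligase that joins Okazaki fragments, stood at 3.66, 3.93 and 3.76 in culture, 4.99 and 6.15 in coculture, 6.55, 5.48 and 7.27 after bile duct ligation, 4.19, 4.74 and 5.48 after CCl4 and 4.95, 4.95, 4.55, 5.11 and 5.52 in quiescent cells. It fell by 1.23 ± 0.38 in culture and rose by 1.42 ± 0.38 after bile duct ligation (adjusted p = 0.0179 and 0.0191). Its coculture difference, 0.55 ± 0.44, was not called. All 3 culture arrays lay below the arrays of every other group.

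Ribonucleotide reductase, which makes deoxynucleotides, had both of its member genes called higher in each of the 4 activated groups. Rrm2, its cell cycle regulated subunit, stood at 7.34, 6.59 and 6.52 in culture, 9.45 and 10.25 in coculture, 9.47, 8.14 and 9.03 after bile duct ligation, 8.71, 8.64 and 8.93 after CCl4 and 4.18, 4.32, 5.39, 5.81 and 4.35 in quiescent cells. No activated array overlapped a quiescent one. Rrm2 rose by 2.01 ± 0.38 in culture, 5.04 ± 0.44 in coculture, 4.07 ± 0.38 after bile duct ligation and 3.95 ± 0.38 after CCl4 (adjusted p = 0.000744, 1.57e-06, 4.17e-06 and 5.13e-06). Rrm1, the large subunit, rose by 1.22, 2.91, 1.92 and 2.43 in the same order, with quiescent values spread over 5.38, 5.66, 6.68, 4.44 and 5.19. Its culture call was lost without culture replicate 1 or 3. In culture a second Rrm1 probe set gave 0.50 and other Rrm2 probe sets 0.93 and 1.68, all smaller than with the probe sets used. In the other activated groups these probe sets gave 1.96 to 4.92.

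Thymidine kinase Tk1 was untested. It stood at 3.10, 2.44 and 1.97 in culture, 3.09 and 5.68 in coculture, 3.72, 2.24 and 3.79 after bile duct ligation, 3.00, 2.44 and 3.19 after CCl4 and 1.09, 1.65, 1.38, 1.12 and 1.49 in quiescent cells. Coculture replicate 3 alone reached log2 5. Most other arrays lay below or near the level without signal, where an order of arrays carries no measured difference. Tyms, thymidylate synthase, stayed at 2.26 or less on all arrays, near the level of probe sets without signal. Dut, which removes dUTP, was called in none of the 4 comparisons with quiescent cells.

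Of the chromatin genes, Uhrf1 was called lower in culture and Chaf1b was not called, and neither reached log2 5 on any culture or quiescent array. Uhrf1, which directs maintenance DNA methylation to new DNA, stood at 3.50, 3.43 and 3.29 in culture, 5.36 and 6.13 in coculture, 7.02, 5.77 and 6.61 after bile duct ligation, 4.63, 5.61 and 5.71 after CCl4 and 4.71, 3.88, 4.21, 4.30 and 4.38 in quiescent cells. Uhrf1 fell by 0.89 ± 0.31 in culture (adjusted p = 0.0324). It differed by 1.45 ± 0.36 in coculture, 2.17 ± 0.31 after bile duct ligation and 1.02 ± 0.31 after CCl4 (adjusted p = 0.00544, 0.000209 and 0.0296). A second Uhrf1 probe set gave -0.23 in culture and 1.22, 2.42 and 1.02 in the other groups in that order. With the mean of probe sets the culture call was lost. Chaf1b, a subunit of the chromatin assembly factor that deposits histones on new DNA, averaged 3.77 ± 0.17 in culture and 3.45 ± 0.17 in quiescent cells (SD, n = 3 and 5) and was not called. It differed by 2.63, 2.05 and 1.16 in coculture, bile duct ligation and CCl4. Because Uhrf1 and Chaf1b entered the test through these groups, their tests there support no direction. Slbp, which binds histone messenger RNA, fell by 0.50 ± 0.17 in culture (adjusted p = 0.0248) and lay within -0.03 to 0.04 in the other 3.

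Cyclin E activates Cdk2 at the start of S phase. Ccne2 stood at 3.14, 3.84 and 5.12 in culture, 6.01 and 7.55 in coculture, 5.92, 4.07 and 5.89 after bile duct ligation, 4.74, 4.77 and 4.89 after CCl4 and 2.17, 2.93, 2.74, 2.81 and 3.27 in quiescent cells. Culture was uneven, with 1 array above 5 and 1 within the quiescent range, and was not called (1.25 ± 0.49, adjusted p = 0.051). Ccne2 differed from quiescent cells by 4.00 ± 0.56 in coculture, 2.51 ± 0.49 after bile duct ligation and 2.02 ± 0.49 after CCl4 (adjusted p = 8.15e-05, 0.00223 and 0.00858). It reached log2 5 on no quiescent or CCl4 array. Because Ccne2 entered the test through activated groups, these tests support no direction. Ccne1 was untested and averaged 3.01 in culture, 4.84 in coculture, 4.66 after bile duct ligation, 4.38 after CCl4 and 2.99 in quiescent cells.

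The activation models were also compared with each other. Culture was lower than the mean of the 2 in vivo groups for 28 of 36 members and higher for 1, Rpa1, where 50.9% of all tested genes were called, 25.0% higher and 25.9% lower. The median over the 46 members was -1.05. For 34 of the 46, and for 26 of the 36 tested members, all culture arrays lay below all in vivo arrays, against 22.7% of all tested genes. The lowest were Cdc6 (-3.03 ± 0.27, adjusted p = 7.82e-07), Cdt1 (-2.90 ± 0.27, adjusted p = 1.08e-06), Uhrf1 (-2.48), Mcm6 (-2.43) and Mcm5 (-2.23). Cdc6 and Uhrf1 reached log2 5 on no culture array and entered the test through other groups, so their tests support no direction. Rrm2, higher in culture than in quiescent cells, was lower in culture than in vivo (-2.001 ± 0.37, adjusted p = 0.000414). For 22 members the lower call was kept whichever array was left out. Lost at least once were Dut, Orc6, Pola1, Rfc2, Rrm1 and Slbp, at -1.02 to -0.48, and Rpa1 (0.57 ± 0.20, adjusted p = 0.0264), whose call was lost without culture replicate 3, bile duct ligation replicate 2 or CCl4 replicate 2, and whose second probe set gave 0.00.

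Few single members were called between coculture and the in vivo groups. Of the 36 members 5 were higher in coculture and 0 lower, where 30.3% of tested genes were called, 15.0% higher and 15.3% lower, so that the count of higher members lay near the share of all tested genes, and at an unadjusted p under 0.05 10 were higher and 1 lower. The 5 were Ccne2 (1.73 ± 0.55), Gmnn (1.05 ± 0.37), Chaf1b (1.03 ± 0.28), Fen1 (0.91 ± 0.31) and Gins4 (0.71 ± 0.23), with adjusted p of 0.0255, 0.0397, 0.012, 0.0368 and 0.0267. None of these 5 calls was kept without coculture replicate 3, where the differences were 0.63 to 0.96. Without coculture replicate 2 or 1 of several bile duct ligation or CCl4 arrays, the calls of Fen1, Gins4 or Gmnn were lost, at 0.67 to 1.41. Both coculture arrays lay above all in vivo arrays for 6 of the 46 members and below them for 1. Among the 36 tested members these counts were 5 and 1, against shares of 20.1% and 19.7% among all tested genes. The difference was positive for 38 of the 46 members, with a median of 0.39, against 0.01 over all tested genes. A p that misses the threshold does not show that the 31 other members were equal.

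Bile duct ligation and CCl4 were not told apart by single members. Of 36 members 0 were called, as were 0.166% of all tested genes, 0.0256% higher and 0.141% lower, and at an unadjusted p under 0.05 7 were higher after bile duct ligation and 0 lower. The smallest adjusted p was that of Lig1 (1.63 ± 0.43, adjusted p = 0.14). For 10 of the 46 all bile duct ligation arrays lay above all CCl4 arrays and for 0 below. Among the 36 tested members these counts were 8 and 0, against shares of 13.5% and 11.8% among all tested genes. Uhrf1, Chaf1b, Mcm2 and Cdc6 were next in size, at 1.15, 0.90, 0.81 and 0.81.

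Arrays of 1 group differed from each other in these genes. Coculture replicate 3 exceeded replicate 2 in 44 of 46 members, by a median of 0.68, against -0.01 over all tested genes. Bile duct ligation replicate 2 was the lowest of its 3 arrays in 36 of 46. Among quiescent arrays replicates 4 and 2 were the lowest for 20 and 14 members, and replicate 3 was the highest for 19.

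Genes of later phases gave another order of the states. Of 34 measured genes of G2 and mitosis 15 were tested, and 12 of the 15 reached log2 5 on no quiescent array. Those 12 entered the test through the activated groups and had to stand higher in at least 1 of them, so the counts that follow describe the 15 and support no direction. In culture 14 of these 15 were higher than in quiescent cells and 0 lower, among them the kinase gene Cdk1 (3.48 ± 0.32), Top2a (2.18), which untangles DNA, and the proliferation marker Mki67 (1.92). All 15 were higher in coculture, after bile duct ligation and after CCl4 than in quiescent cells, and in coculture than in culture. Of all tested genes 18.5%, 17.8%, 8.03%, 9.51% and 8.37% were called higher in these 5 comparisons. Of the 5 tested genes with a mean of at least log2 5 over all arrays (Cdk1, Cdc20, Mad2l1, Incenp and Anln), 4 were higher in culture and 5 in each of the other 4 comparisons. Cdk1 rose by 5.61, 4.53 and 4.37 in coculture, after bile duct ligation and after CCl4 over quiescent cells. Medians over the 15 tested genes were 2.15 in culture, 4.78 in coculture, 2.44 after bile duct ligation and 3.02 after CCl4, all against quiescent cells, where the median over all tested genes lay between -0.05 and -0.04. Over all 34 measured genes the medians were 1.06, 3.60, 1.44 and 2.06 in the same order. The mean over the 34 genes was 3.53 to 3.73 on the culture arrays, 4.89 and 6.87 in coculture, 3.73 to 4.30 after bile duct ligation, 4.02 to 4.78 after CCl4 and 2.16 to 2.50 on the quiescent arrays. Culture arrays thus lay above quiescent ones for mitosis genes and within or just below their range for replication genes. Probe sets near the level without signal enter both means.

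**Figure D4:**
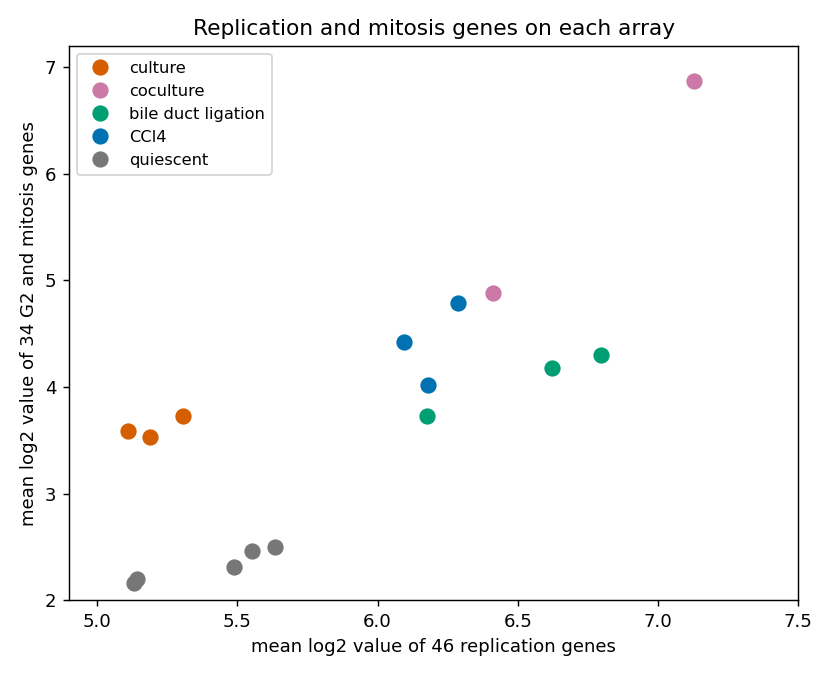
Mean log2 value of the 46 replication genes (horizontal) against that of 34 G2 and mitosis genes (vertical) on each of the 16 arrays, coloured by group. Culture arrays sit above the quiescent arrays at a similar horizontal place, from 5.11 to 5.31, and the coculture, bile duct ligation and CCl4 arrays lie to the right of both, from 6.09 upwards.

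Other genes of the same pathway were counted from lists. Against quiescent cells, 18.5% of all tested genes were called higher and 23.5% lower in culture, 17.8% and 20.9% in coculture, 8.03% and 8.83% after bile duct ligation, and 9.51% and 12.5% after CCl4, and counts near these shares are no result about a list. Of 15 tested licensing, firing and fork factors outside the members, 2 (13.3%) were higher and 5 (33.3%) lower in culture, 4 higher and 2 lower in coculture, 2 higher and 0 lower after bile duct ligation, and 3 higher and 0 lower after CCl4, each against quiescent cells. Their medians were -0.19, 0.33, 0.26 and 0.28. Dnmt1, the maintenance DNA methyltransferase that Uhrf1 recruits, fell by 1.96 ± 0.30 in culture (adjusted p = 0.000136) and was 1.59 higher in coculture than in culture. Clspn, a fork checkpoint adaptor, differed by 3.32 in coculture, 2.70 after bile duct ligation and 1.64 after CCl4. It averaged 1.92 in quiescent cells, near the level without signal, and reached log2 5 on no quiescent array. Because Clspn entered the test through activated groups, these differences support no direction. Dbf4, the activator of the kinase that fires origins, rose by 1.09 in coculture.

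Of 18 other tested genes of nucleotide supply, 3 (16.7%) were higher and 9 lower in culture than in quiescent cells. Cad, which starts pyrimidine synthesis, fell by 3.67 ± 0.26 in culture and fell by 3.57 ± 0.30 in coculture (adjusted p = 1.19e-07 and 1.22e-06). Rrm2b, the p53-induced small subunit of ribonucleotide reductase, rose by 1.11 in culture and was lower in coculture than in culture (-0.90). In coculture 4 of the 18 were higher and 2 lower, after bile duct ligation 3 and 0, and after CCl4 4 and 0. The medians of the 18 were -0.62 in culture, 0.19 in coculture, 0.40 after bile duct ligation and 0.44 after CCl4. Ctps, the CTP synthase gene, rose by 0.95, 1.12 and 1.33 in these 3.

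Of 23 tested regulators of entry into S phase, 7 (30.4%) were higher and 7 lower in culture, and 7 and 3 in coculture. After bile duct ligation 2 (8.7%) and 1 were, and after CCl4 2 and 0, both counts of higher genes near the share of all tested genes. Medians were -0.15, 0.02, 0.15 and 0.12 in the same order. However, 4 of the 23 reached log2 5 on no quiescent array and entered the test through activated groups. Among the 19 with a mean of at least log2 5 over all arrays, 4 were higher and 7 lower in culture. In coculture 4 of these 19 were higher and 3 lower. Both counts of higher genes lay near the share of all tested genes and are no result about the list. The D cyclins, which start the passage through G1, went opposite ways in culture. Ccnd3 (cyclin D3) rose by 1.50 ± 0.24 (adjusted p = 0.00019) and Ccnd1 (cyclin D1) fell by 1.81 ± 0.30 (adjusted p = 0.000228). Myc fell by 2.38 ± 0.45 and Cdk4 by 0.79 ± 0.15 in culture (adjusted p = 0.000692 and 0.000866). Ccnd3 was also higher in coculture (1.13) and after bile duct ligation (0.74, adjusted p = 0.0461), and Ccnd1 lower in coculture (-0.92) and after bile duct ligation (-1.48). E2f7, a repressor of the E2F family, differed by 3.18 in coculture, 3.05 after bile duct ligation and 2.22 after CCl4. It averaged 1.82 in quiescent cells, near the level without signal, and 4.05 after CCl4. Because E2f7 entered the test through activated groups, these differences support no direction. Of 11 tested genes of replication stress and repair, 0 were called after either injury, 2 were lower in culture (Gadd45a and Atr), and in coculture Wee1 was higher and Atr lower.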

How the data were processed

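RNA of 16 stellate cell preparations was measured on 1 oligonucleotide array each. The authors deposited log2 expression values per probe set, made with GCRMA per the submitters' processing notes, with its version and settings not given in the sources used here. GCRMA corrects background, normalises arrays by quantiles and summarises probes, and it places probe sets without signal near log2 2 (array medians 2.00 to 2.06). The number of arrays limits the precision.

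Of 45101 probe sets, those the platform annotation gives to several symbols or none were left out, and each of 18193 genes kept its probe set with the highest mean. Of the 46 members, 15 used a probe set of a class that can bind more than 1 transcript or related sequences. After a filter of log2 5 on at least 2 arrays, limma 3.58.1 (R 4.3.3, eBayes with a trend) estimated 5 group means from the 16 arrays together, a step also tested on simulated data. The 8 comparisons were two-sided, with Benjamini-Hochberg adjustment over 7823 genes, and calls had an adjusted p under 0.05. Members, gene lists and promoter letters were chosen with earlier results of these data known. All members may be named. Full statistics go to the largest called changes and those discussed by role, and other lists are named by their smallest adjusted p.

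Alternatives were other filters, probe set rules, centring, array weights, no trend, only the arrays compared, a replicate block and each array left out. Promoter windows are from RefSeq.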

Additional observations from a re-analysis of the deposited data

Results flagged for a closer look

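Among the 46 members in the quiescent group, the group with enough arrays for this check, 2 values stood far from the others of their group. Pold2 was 5.81 on quiescent replicate 2, against 6.72 to 6.85 on the other 4 quiescent arrays. Fen1 was 6.001 on quiescent replicate 4, against 7.19 to 7.40 on the other 4. In each case the gap to the nearest array, divided by the range of the group, exceeded the critical value of Dixon's test for 5 samples. Chance marks about 1 in 20 groups. Both arrays were low for many other members, replicate 4 being the lowest of the group for 20 and replicate 2 for 14 of 46.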

How the results depend on the processing

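Of the called or uncalled differences of single members under each alternative, 0 changed sign while called. Counts of members higher or lower moved by over 1.5 times in these cases. With genes kept at log2 7 on 2 arrays, which leaves 22 members tested, the counts were 6 lower in culture, 16 higher and 0 lower in coculture, 12 higher after bile duct ligation and 11 after CCl4, each against quiescent cells, 16 higher in coculture than in culture, 17 lower in culture than in vivo and 3 higher in coculture than in vivo. With array weights 5 members were higher and 21 lower in culture than in quiescent cells, 1 was lower after CCl4, and 2 were higher in culture than in vivo. That last count was 0 with the mean of probe sets, or without the probe set classes that can bind several sequences. For coculture over the in vivo mean, 3 were higher with genes kept by their mean, and 1 was lower with centred arrays. The causes were not tested, beyond the fewer members that a stricter filter leaves.

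With each array left out in turn, the members higher and lower numbered 2 to 4 and 7 to 15 in culture, 12 to 25 and 0 to 1 in coculture, 13 to 21 and 0 after bile duct ligation, and 12 to 17 and 0 to 1 after CCl4, each against quiescent cells. They numbered 14 to 29 and 0 in coculture against culture, 0 to 1 and 23 to 29 in culture against the in vivo mean, and 0 to 6 and 0 to 1 in coculture against the in vivo mean. Bile duct ligation against CCl4 gave 0 in every setting run.

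Whether the replicate numbers of the labels pair the samples could not be settled. Residuals were correlated above 0.1 in 7 of 26 pairs with the same number (lowest -0.26, median -0.01, highest 0.54). Among pairs with unlike numbers, 18 of 74 were. Between culture and coculture, the pairs with the same number stood at 0.31 (replicate 2) and 0.54 (replicate 3). However, culture replicate 1 gave 0.45 with coculture replicate 2. Residuals around a mean of 2 or 3 arrays depend on each other, so these correlations cannot decide. With a replicate block, 5 members were higher in culture than in quiescent cells and 9 in coculture than in vivo, and the other counts stayed within 1.5 times of those reported. The block ended 16 calls of single members (adjusted p 0.0512 to 0.104), namely Lig1, Slbp and Uhrf1 in culture, Cdt1, Orc6 and Prim2 in coculture, Cdt1, Fen1, Orc6 and Rfc3 after bile duct ligation and Mcm3, Mcm4, Rpa2 and Uhrf1 after CCl4, each against quiescent cells, Pola1 in coculture against culture and Rfc2 in culture against in vivo. With no filter 18 calls ended (adjusted p 0.0508 to 0.0786), those of Uhrf1 in culture, Orc6, Prim2, Rfc2 and Rfc4 in coculture, Cdt1, Fen1, Orc6 and Rfc3 after bile duct ligation, Mcm3 and Rpa2 after CCl4, Dut and Pola1 in coculture against culture, Pola1, Rfc2 and Rrm1 in culture against in vivo and Fen1 and Gmnn in coculture against in vivo. Fits of only the groups compared ended 21 (adjusted p 0.0536 to 0.119), those of Slbp in culture, Cdt1, Orc6, Prim2, Rfc2 and Rfc4 in coculture, Cdt1, Fen1, Mcm2, Orc6 and Rfc3 after bile duct ligation, Mcm3 and Rpa2 after CCl4, Ccne2, Dut, Pola1, Pole2, Prim2 and Rfc2 in coculture against culture and Pola1 and Rfc2 in culture against in vivo. Signal over background limits Tyms and the other 9 untested members, and 2 coculture arrays limit every coculture result.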
